A study of Mus musculus with 24 samples.

Results

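The collagen VI genes of the mouse are Col6a1, Col6a2, Col6a3, Col6a4, Col6a5 and Col6a6, and all 6 were found among the 51826 genes of the count table by matching versioned Ensembl gene identifiers to GENCODE M21. The family was picked because of Col6a4, whose level was lower in CBP KIX/KIX mice than in WT mice kept in the homecage, so that difference is described here without a test. RNA of the dorsal hippocampus was sequenced in 24 libraries from mice labelled as male, on a C57BL/6j background and aged 2 to 4 months, while the study's methods name both sexes for its experiments in general. CBP KIX/KIX mice carry, in every cell and from conception, point mutations in the KIX domain of the coactivator CBP that block its binding to phosphorylated CREB, and the WT animals were littermates. RNA-Seq 1 (total RNA, ribosomal RNA removed) held 3 WT homecage, 3 WT MWM and 3 KIX MWM libraries, MWM being training in the Morris water maze over 3 days. RNA-Seq 2 (polyA-selected RNA) held 3 WT homecage, 4 WT CFC, 4 KIX homecage and 4 KIX CFC libraries, CFC being contextual fear conditioning with a brief foot shock, and tissue was taken 1 h after training. The homecage mice of RNA-Seq 2 were handled without a shock. The experiments differ in task, in library type and in run, so these cannot be told apart.

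Collagen VI is a microfibrillar collagen of the extracellular matrix. Its secreted unit joins the chains made from Col6a1 and Col6a2 with another, longer chain, which comes from Col6a3 or from one of Col6a4, Col6a5 and Col6a6, and the units then assemble into beaded filaments close to basement membranes. It is best known from muscle, where mutations in the human orthologues of Col6a1, Col6a2 and Col6a3 cause muscular dystrophies, and in brain it is associated with vessels and meninges. The gene orthologous to Col6a4 is broken in humans by a chromosomal inversion and is intact in mice.

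The genes lie at 3 loci of GRCm38, all on the minus strand and all annotated as protein coding. Col6a3 (ENSMUSG00000048126.16) lies alone at chr1:90765923-90843971. Col6a6 (ENSMUSG00000043719.14, chr9:105687809-105828160), Col6a5 (ENSMUSG00000091345.9, chr9:105856078-105960643) and Col6a4 (ENSMUSG00000032572.9, chr9:105989454-106096783) stand in a row, 27917 and 28810 bases apart. Col6a2 (ENSMUSG00000020241.13, chr10:76595762-76623630) and Col6a1 (ENSMUSG00000001119.7, chr10:76708792-76726168) lie 85161 bases apart. Gm24631, Gm47575 and Gm36993 overlap Col6a4 on the opposite strand, Gm38314 overlaps Col6a6 on the opposite strand and Gm36970 overlaps Col6a3 on its own strand. The setting used to count reads by strand was not given in the sources used here, so reads of these pairs may not be fully separated.

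**Figure D1:**
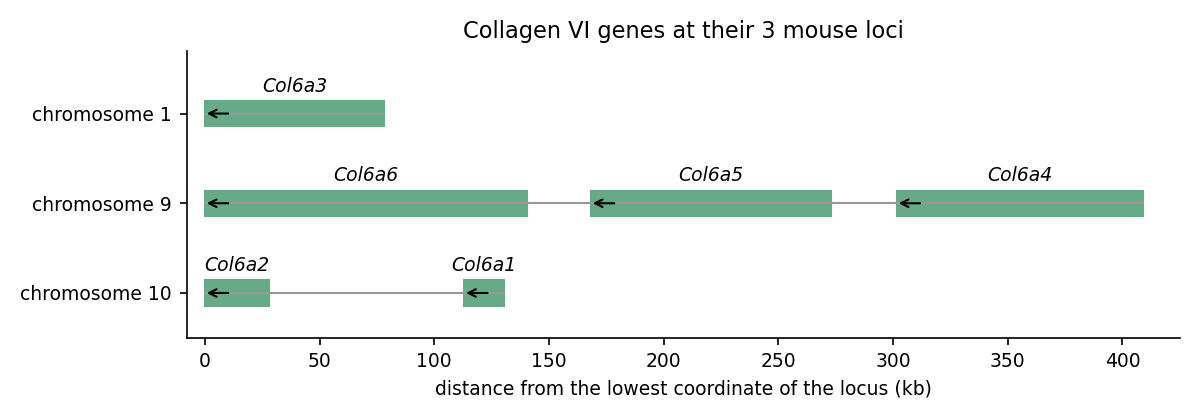
Positions of the 6 collagen VI genes, drawn to scale as boxes in kb from the lowest coordinate of each locus, with an arrow for the direction of transcription. Col6a6, Col6a5 and Col6a4 are neighbours on chromosome 9, Col6a2 and Col6a1 on chromosome 10, and all 6 read toward lower coordinates.

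The parts of the RefSeq promoter windows that lie before the GENCODE start are shown for Col6a4, on which the family was chosen, and for Col6a1 and Col6a2, which varied together over libraries. They are RefSeq sequences of GRCm38.p6 on the minus strand, 5' to 3', from chr9:106096784-106096941 for Col6a4, chr10:76726169-76726294 for Col6a1 and chr10:76623631-76623880 for Col6a2. No base is capitalised because none of the motifs searched was found.
Col6a4: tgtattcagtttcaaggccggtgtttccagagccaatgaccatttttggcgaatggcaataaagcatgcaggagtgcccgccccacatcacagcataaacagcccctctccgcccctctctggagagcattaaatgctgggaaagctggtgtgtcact
Col6a1: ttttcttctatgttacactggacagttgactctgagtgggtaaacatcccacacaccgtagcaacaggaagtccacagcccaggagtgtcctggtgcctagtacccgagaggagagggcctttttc
Col6a2: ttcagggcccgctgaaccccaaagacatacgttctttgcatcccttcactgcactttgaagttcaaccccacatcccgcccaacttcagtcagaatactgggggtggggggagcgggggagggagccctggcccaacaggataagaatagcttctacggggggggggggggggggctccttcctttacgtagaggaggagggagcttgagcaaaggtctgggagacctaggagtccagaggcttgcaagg
The search covered the window from 250 bases before to 50 bases after each RefSeq start, on both strands, for the cAMP response element TGACGTCA to which CREB binds, its shorter form TGACG (part of the former) and the E-box CACGTG. None of the 3 occurred in the 7 windows annotated for the 6 genes. Over all 32851 promoter windows, 1.79% held TGACGTCA, 20.81% held TGACG and 7.15% held CACGTG.

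The libraries held between 15385836 and 65709282 counts, and every member was detected in every library, with 8 counts in the lowest case (Col6a6 in KIX homecage replicate 3). The smallest level that 3 counts would give was 0.0448 to 0.194 CPM, where CPM is counts per 1000000 counts after upper-quartile scaling within each experiment. All 8 hippocampal neuron markers checked, among them Prox1 and Wfs1, were detected in every group, with summed levels of 628 to 915 CPM. Markers of the choroid plexus, which is not hippocampal tissue, summed to between 31.1 and 4622 CPM over libraries. The Crebbp transcript, which encodes CBP, averaged 73.9 ± 4.73 CPM (SD, n = 3) in the WT homecage group of RNA-Seq 2. In the KIX homecage group it averaged 70.4 ± 5.11 CPM (SD, n = 4), and point mutations are not visible in counts.

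Col6a1 was the most abundant chain per length of exon in both experiments, at 2.19 ± 0.433 RPKM (SD, n = 9) in RNA-Seq 1 and 14.8 ± 4.15 RPKM (SD, n = 15) in RNA-Seq 2. Its obligatory partner Col6a2 had 0.712 ± 0.103 and 1.84 ± 0.524 RPKM in the same experiments, and Col6a3, the usual long chain, had 1.23 ± 0.856 and 1.27 ± 0.409 RPKM. Over all libraries of RNA-Seq 1 and RNA-Seq 2, the alternative long chains had lower means. Col6a4 had 0.263 ± 0.104 and 0.661 ± 0.465 RPKM, Col6a5 0.111 ± 0.0340 and 0.247 ± 0.0536 RPKM, and Col6a6 0.0562 ± 0.0184 and 0.115 ± 0.0427 RPKM. For Col6a4 the RNA-Seq 2 mean joins groups that differed. In the WT homecage group it had 1.129 ± 0.253 RPKM (SD, n = 3), close to 1.188 ± 0.273 RPKM for Col6a3. The means of Col6a4 and Col6a3 were 0.882 and 1.402 RPKM in the WT CFC group. They were 0.216 and 1.065 RPKM in the KIX homecage group, and 0.535 and 1.416 RPKM in the KIX CFC group. The ranges of Col6a1 and Col6a3 overlapped in RNA-Seq 1. There, Col6a2 (0.555 to 0.862 RPKM) and Col6a3 (0.508 to 2.72 RPKM) overlapped too, as they did in RNA-Seq 2, where they changed places in the order. Col6a3 and Col6a4 overlapped in RNA-Seq 2 and not in RNA-Seq 1. Col6a4 and Col6a5 also overlapped in both experiments, and so did Col6a5 and Col6a6. Col6a1 lay above every other member in every library of RNA-Seq 2. Between the WT homecage groups of RNA-Seq 2 and RNA-Seq 1, the ratio of mean CPM was 6.17 for Col6a4, 5.72 for Col6a1, 2.92 for Col6a2, 2.61 for Col6a5, 1.81 for Col6a6 and 0.636 for Col6a3, and these ratios cover library type, run and animals together.

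**Figure D2:**
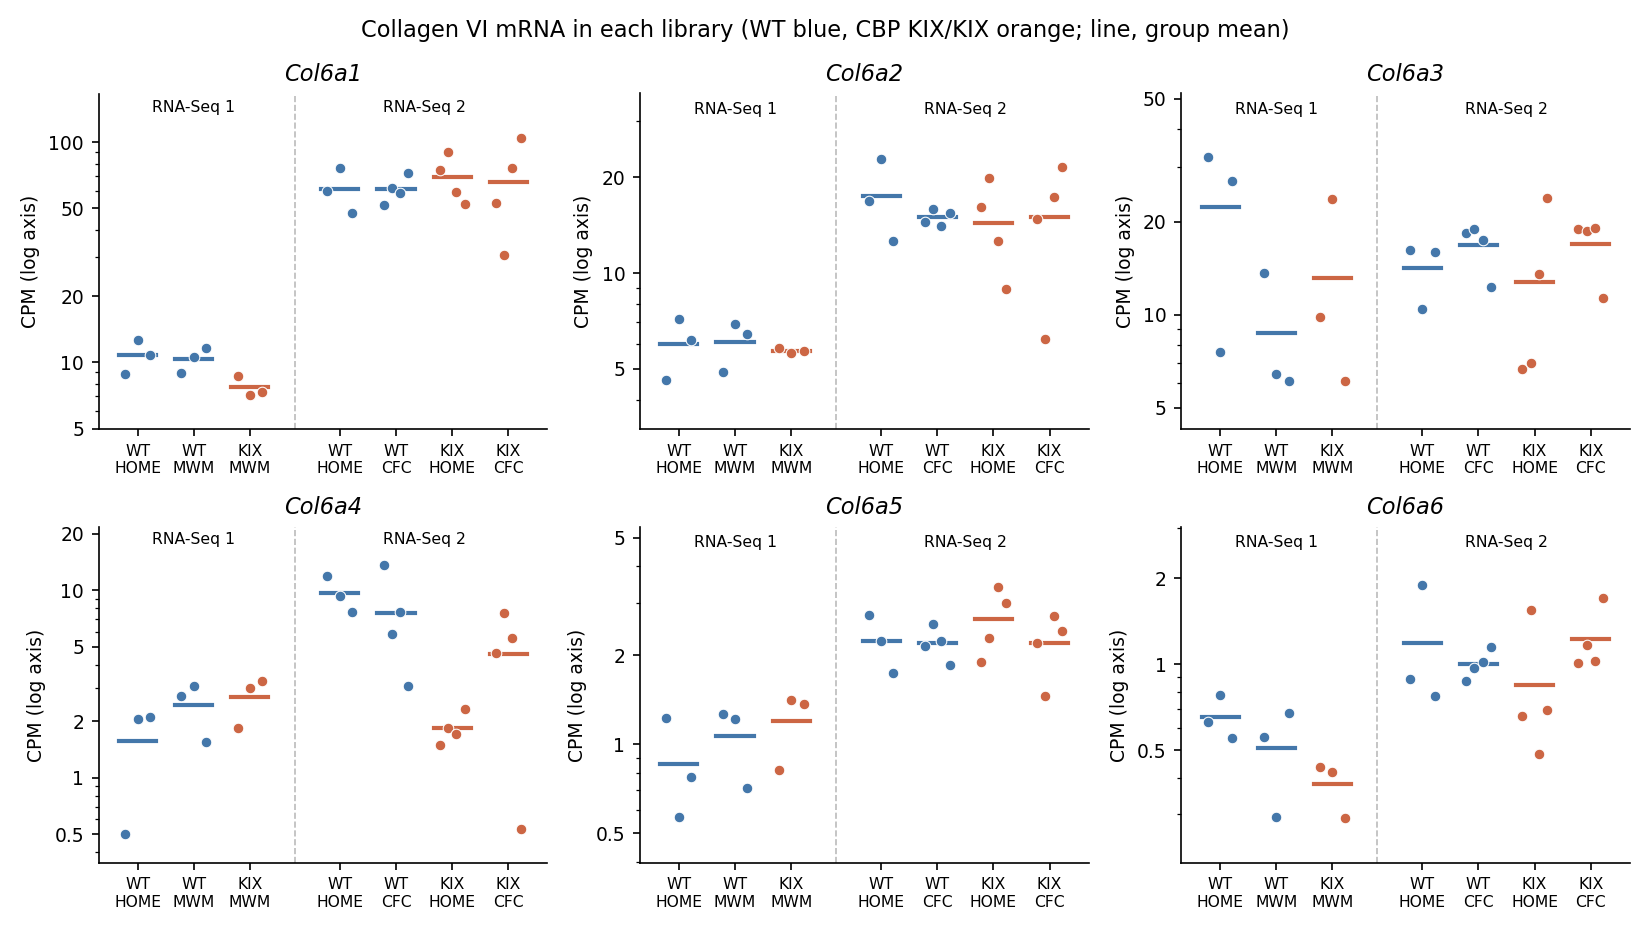
Level of each collagen VI gene in CPM on a log axis, with 1 point per library, grouped by genotype and exposure, and a line at the group mean. In RNA-Seq 2 the 4 KIX homecage points of Col6a4 (1.49 to 2.32 CPM) sit below the 3 WT homecage points (7.63 to 11.9 CPM), and the other members overlap between those groups.

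In the homecage of RNA-Seq 2, Col6a4 stood at 11.9, 9.33 and 7.63 CPM in the WT libraries and at 1.49, 1.85, 1.70 and 2.32 CPM in the KIX libraries. All 4 mutant libraries were below all 3 WT libraries. The log2 difference between KIX and WT was -2.41 (SE 0.198), with means of 9.63 ± 2.15 CPM (SD, n = 3) and 1.84 ± 0.355 CPM (SD, n = 4). These values chose the gene, so they carry no test. Over all genes, 0.0107% passed an adjusted p of 0.05 in this contrast and 6.88% had groups that did not overlap, and nothing is read from those shares. The difference came from 118 to 443 counts per WT library and 28 to 85 per KIX library. Bulk RNA cannot tell fewer expressing cells from less RNA per cell.

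The other members overlapped between genotypes in the homecage. The partner chains differed by 0.17 (SE 0.20) for Col6a1 and -0.27 (SE 0.267) for Col6a2 on the log2 scale. Among the long chains, Col6a3 differed by -0.19 (SE 0.416), Col6a5 by 0.19 (SE 0.242) and Col6a6 by -0.45 (SE 0.441). Col6a5, the nearest neighbour of Col6a4, stood at 1.75 to 2.74 CPM in WT and 1.90 to 3.40 CPM in KIX libraries. Within 1 Mb of the cluster, 33 further genes were tested and none passed an adjusted p of 0.05 in this contrast. Of other cell types, all 11 fibroblast markers were detected, with sums of 109 to 431 CPM in WT and 104 to 274 CPM in KIX homecage libraries, and all 9 mural cell markers summed to 203 to 321 CPM and 220 to 259 CPM. The 6 endothelial markers summed to 182 to 228 CPM and 204 to 230 CPM, and the 7 choroid plexus markers to 31.1 to 1862 CPM and 133 to 2898 CPM. No marker of these lists was at 0 in either group, and the part of these cells in the Col6a4 values was not tested.

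After fear conditioning the genotypes overlapped for Col6a4. The WT CFC libraries stood at 13.6, 5.81, 7.61 and 3.07 CPM and the KIX CFC libraries at 4.61, 7.56, 5.54 and 0.530 CPM. Both groups were wide, and the lowest mutant library rested on 9 counts. The log2 difference was -0.69 (SE 0.551), and edgeR's quasi-likelihood test over all genes gave an adjusted p of 1.00. Left out in turn, single libraries moved it between -1.06 (without KIX CFC replicate 2) and -0.24 (without WT CFC replicate 1), and the mutant library with 9 counts left out gave -0.36. The other 5 members lay between -0.04 for Col6a5 and 0.27 (SE 0.211) for Col6a6. None of the 6 members passed an adjusted p of 0.05, none had an unadjusted p under 0.05 and DESeq2 called none. The background was 0.00570% of genes called and 2.54% with groups that did not overlap, against 0 of 6 members.

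After the water maze Col6a1 was the member whose genotypes separated. Its WT MWM libraries stood at 8.94, 10.6 and 11.6 CPM and its KIX MWM libraries at 8.69, 7.09 and 7.30 CPM. The log2 difference was -0.42 (SE 0.126), and with edgeR the unadjusted p was 0.00645 and the adjusted p was 0.435. It was 1 of 6 members with groups that did not overlap, where 17.4% of all genes had such groups, so this share is near the background. Col6a2, the partner chain, stood at 4.89 to 6.93 CPM in WT and 5.6 to 5.83 CPM in KIX libraries (log2 difference -0.09, SE 0.14). Col6a4 stood at 2.73, 3.08 and 1.55 CPM in WT and at 1.83, 3.02 and 3.26 CPM in KIX MWM libraries, a log2 difference of 0.14 (SE 0.267, adjusted p = 0.853). Col6a3 differed by 0.59 (SE 0.423), Col6a5 by 0.17 (SE 0.282) and Col6a6 by -0.41 (SE 0.368). With edgeR 0 of 6 members passed an adjusted p of 0.05 and 1 had an unadjusted p under 0.05. DESeq2 gave an adjusted p to 3 of the members and called none of them, and the background of calls was 0.0141%.

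Pooled over both tasks, with experiment as a term and 4 factors of unwanted variation, 2.84% of genes differed between genotypes after learning and 0 of 6 collagen VI genes did. Col6a4 differed by -0.35 (SE 0.310, adjusted p = 0.615), Col6a1 by -0.18 (SE 0.105, adjusted p = 0.400), Col6a2 by -0.12 (SE 0.10) and Col6a3 by 0.19 (SE 0.173). Col6a5 and Col6a6 both differed by 0.02. No member had an unadjusted p under 0.05, and DESeq2 called none of them. The difference between the experiments in the genotype effect was tested as an interaction, in which task, library type and run change together. Of all genes 0% passed, with 0 of the 6 members at an unadjusted p under 0.05 by edgeR. For Col6a4 that interaction was -0.83 (SE 0.734, adjusted p = 0.819). These tests do not show that Col6a4 was alike in both genotypes after learning.

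**Figure D3:**
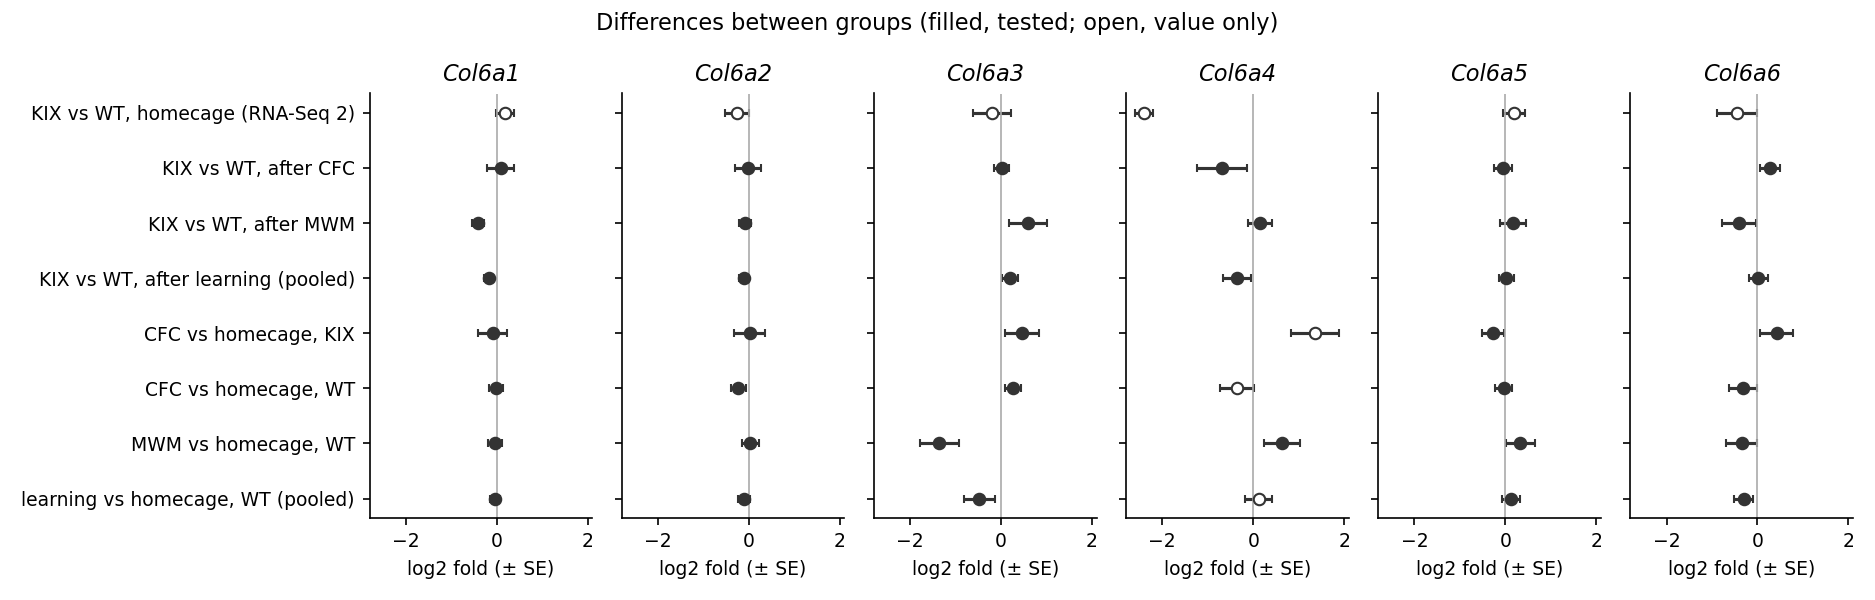
Log2 difference of each collagen VI gene in 8 comparisons, with bars of 1 SE. Filled points were tested and open points are values only, because the homecage libraries of RNA-Seq 2 chose Col6a4. The open Col6a4 point at -2.41 lies farthest from 0, and the Col6a3 point at -1.36 (MWM in WT) is the farthest filled one.

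Training in the water maze was followed by lower Col6a3 values in WT mice, but with wide groups. The homecage libraries stood at 32.5, 7.58 and 27.0 CPM and the MWM libraries at 13.6, 6.42 and 6.08 CPM, so all 3 trained libraries were below the homecage mean and 1 homecage library lay among them. The log2 difference was -1.36 (SE 0.423), with an unadjusted p of 0.00733 and an adjusted p of 0.389 by edgeR. Deviations of same-numbered libraries correlated weakly in this comparison (r of 0.112 to 0.185), which does not show that they were paired. With the replicate block, an alternative to the main fit, the difference was -1.24 (SE 0.147) with an edgeR adjusted p of 2.1e-10. The 3 differences within a number were -1.25, -0.24 and -2.14, and the blocked fit had 2 residual degrees of freedom per gene, to which edgeR added 122 shared ones, against 4 and 8.33 without it. With WT homecage replicate 2 left out the adjusted p was 0.0303, and it was 5.97e-06 without the filter on low counts, while DESeq2 gave 0.601. Over all genes the block moved the calls from 3 to 465.

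The other members moved less after the water maze. Col6a4 stood at 0.502, 2.06 and 2.12 CPM in the homecage of RNA-Seq 1 and at 2.73, 3.08 and 1.55 CPM after training, a log2 difference of 0.63 (SE 0.398, adjusted p = 0.637). Col6a5 differed by 0.33 (SE 0.324), Col6a6 by -0.35 (SE 0.347), Col6a1 by -0.05 (SE 0.152) and Col6a2 by 0.03 (SE 0.186). With edgeR 0 of 6 members passed, 1 had an unadjusted p under 0.05 and DESeq2 called none, against 0.0139% of genes called and 13.5% of genes, but no member, with groups that did not overlap.

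Fear conditioning in WT mice left all 5 tested members overlapping. Col6a3 stood at 16.2, 10.4 and 16.0 CPM in the homecage and at 18.4, 19.0, 17.4 and 12.3 CPM after CFC, a log2 difference of 0.26 (SE 0.181). The remaining tested differences were -0.24 (SE 0.163) for Col6a2, -0.32 (SE 0.305) for Col6a6, -0.04 (SE 0.181) for Col6a5 and -0.02 (SE 0.148) for Col6a1, with adjusted p of 1.00 for each. Col6a4 differed by -0.35 (SE 0.376), a value only, since its homecage libraries chose it. None of the 5 had an unadjusted p under 0.05 and DESeq2 called none. Of all genes 0.116% were called and 5.34% had groups that did not overlap.

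In KIX mice, Col6a4 stood at 1.49 to 2.32 CPM in the homecage and at 0.530 to 7.56 CPM after CFC, with 3 of 4 trained libraries above and 1 below every homecage library. The log2 difference of 1.35 (SE 0.529) is a value only, since the same homecage libraries chose the gene. Col6a3 differed by 0.46 (SE 0.374) and Col6a6 by 0.42 (SE 0.356), and all 4 trained libraries of Col6a6 lay above its homecage mean of 0.846 CPM. Col6a5 differed by -0.27 (SE 0.241), Col6a1 by -0.09 (SE 0.320) and Col6a2 by 0.01 (SE 0.347). None of the 5 tested members passed with edgeR or DESeq2 and none had an unadjusted p under 0.05. The background was 0.0113% called and 5.04% with groups that did not overlap.

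Pooled over both tasks in WT mice, with 3 factors of unwanted variation, 1.04% of genes changed with learning and 0 of 5 tested members did. Of the genes called, 89 were higher and 140 lower, and with TMM scaling 88 and 51. Col6a3 differed by -0.48 (SE 0.338, adjusted p = 0.502), Col6a6 by -0.30 (SE 0.212), Col6a5 by 0.12 (SE 0.196), Col6a2 by -0.11 (SE 0.128) and Col6a1 by -0.04 (SE 0.101). Col6a4 differed by 0.12 (SE 0.297), again a value only. None of the 5 had an unadjusted p under 0.05, and DESeq2 called none. With the replicate block and the factors together, a fit that drops WT CFC replicate 4, Col6a3 differed by -0.45 (SE 0.0884, edgeR adjusted p = 0.0287). That setting called 938 of all genes, against 229 in the main fit and 13 with the block without factors. The block without factors called no member. The interaction of learning with experiment passed for 0.0136% of genes and for no tested member. For Col6a3 it was 1.62 (SE 0.556, unadjusted p = 0.0106, adjusted p = 0.542), the one member under 0.05 before adjustment, with -1.36 in the water maze and 0.26 in fear conditioning.

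Members differed in how far libraries of 1 group stood apart. In RNA-Seq 2, Col6a4 ranged 25.6-fold over the 15 libraries of all groups, from 0.530 to 13.6 CPM. Its SD within groups was 1.00 on the log2 scale, where the median over all genes was 0.154. It ranked 39 of the 12267 genes with a mean at least as high, among which the median was 0.107. In RNA-Seq 1 Col6a3 had the widest groups of the family, with an SD of 0.947 and rank 9 of 8710 genes, and Col6a4 had 0.769. Col6a1 in RNA-Seq 2 had an SD of 0.470 and ranked 12 of 3845 genes with a mean at least as high, and in RNA-Seq 1 it had an SD of 0.206 and ranked 1487 of 9473, where the median was 0.131.

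Col6a1 and Col6a2, the chains that always pair, rose and fell together over libraries. In RNA-Seq 2 Pearson's r was 0.880 and Spearman's rho 0.896 over 15 libraries (permutation test, 2-sided, adjusted p = 6.00e-04 and 9.00e-04 over 30 pairs of members). The correlation was 0.730 without the 2 libraries farthest from the median of Col6a1, 0.945 on deviations from group means, 0.930 over the 8 libraries of replicates 1 and 2 (30143949 to 46056290 counts) and 0.874 over the 7 shallower ones of replicates 3 and 4 (15385836 to 20568337 counts). In RNA-Seq 1 r was 0.643 and rho 0.70 over 9 libraries (exact permutation test, adjusted p = 0.229 and 0.162), 0.398 without the 2 farthest libraries and 0.870 on deviations from group means. Both genes were lowest in KIX CFC replicate 2, with 30.6 CPM of Col6a1 and 6.22 CPM of Col6a2, where the fibroblast markers summed to 108 CPM. In KIX CFC replicate 4, Col6a1 was highest at 104 CPM, Col6a2 stood at 21.6 CPM and the fibroblast markers at 326 CPM. Col6a2 was highest in WT homecage replicate 2 at 22.9 CPM, where those markers were highest too, at 431 CPM. The markers did not follow the chains throughout, since KIX homecage replicate 1 had the lowest fibroblast sum, 104 CPM, with 74.4 CPM of Col6a1. By mean log2 CPM the fibroblast markers stood at 2.95 in KIX CFC replicate 2, above 2.49 in KIX homecage replicate 1. Over libraries, that mean had r of 0.55 with Col6a1 and 0.398 with Col6a2 in RNA-Seq 2, and 0.58 and 0.629 in RNA-Seq 1. The neuron markers were highest in KIX CFC replicate 2, at 872 CPM, beside 659 to 747 CPM in the other libraries of the experiment. Their mean log2 CPM had r of -0.59 with Col6a1 and -0.657 with Col6a2 in RNA-Seq 2, and -0.17 and -0.422 in RNA-Seq 1. The part of either cell type in the correlation was not tested. Of the other pairs, Col6a1 and Col6a5 ran opposite in RNA-Seq 1, with rho of -0.883 (exact permutation test, adjusted p = 0.0461) and r of -0.815 (adjusted p = 0.133). That r was -0.597 without the 2 farthest libraries, and in RNA-Seq 2 it was 0.362 (permutation test, adjusted p = 0.364).

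Col6a3 followed other genes than the partner chains. Over RNA-Seq 2 its r with Col6a1 was -0.624 (rho -0.543, permutation test, adjusted p = 0.133 and 0.162). Among the 3 genes most like it there were Cacng5, an auxiliary subunit of AMPA receptors (r = 0.917), and Prdm12, a transcriptional regulator known from pain-sensing neurons (r = 0.913). These were chosen as the highest of all genes and carry no test there. In RNA-Seq 1, which did not choose them, r with Col6a3 was 0.925 for Cacng5 and 0.910 for Prdm12, with rho of 0.817 and 0.950 over 9 libraries (exact permutation tests, adjusted p of 0.00613 and 0.00114 for r, and 0.0485 and 0.00317 for rho, over 18 such pairs). Without the 2 libraries farthest from the median the values of r were 0.838 and 0.844, and on deviations from group means 0.940 and 0.871. Cacng5 stood at 29.3, 11.9 and 24.6 CPM in the WT homecage libraries of RNA-Seq 1 where Col6a3 stood at 32.5, 7.58 and 27.0 CPM. For the other 5 members, r in RNA-Seq 1 with their 3 nearest genes of RNA-Seq 2 ran from -0.476 to 0.575 and none of the 15 passed an adjusted p of 0.05 by r. By rho 1 did, Ei24 with Col6a6 (0.833, exact permutation test, adjusted p = 0.0485). The nearest gene was AW551984 for Col6a1, Lrrc17 for Col6a2, Srd5a1 for Col6a4, Drc3 for Col6a5 and Fibin for Col6a6, with r of 0.911, 0.901, 0.885, 0.875 and 0.900 in RNA-Seq 2.

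**Figure D4:**
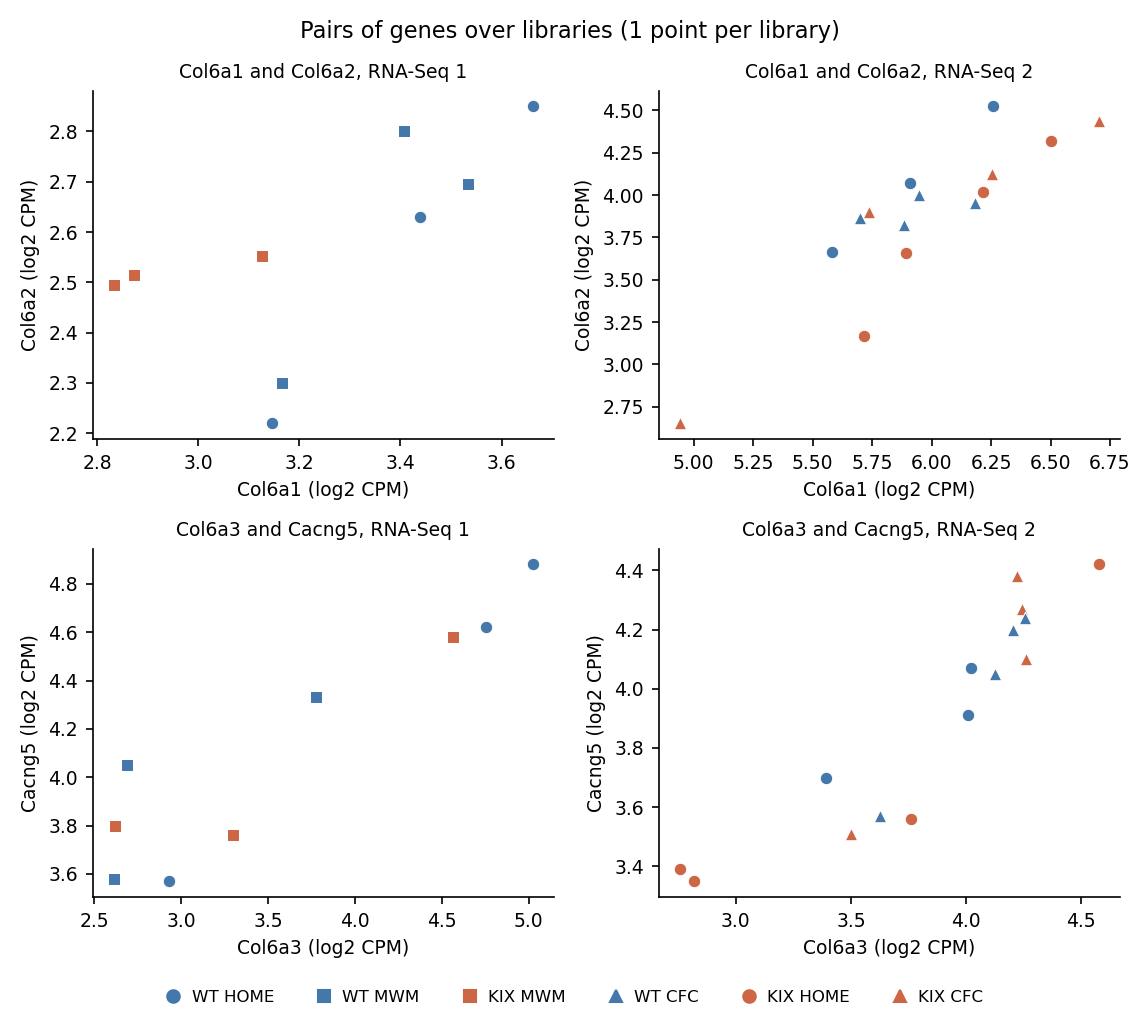
Log2 CPM of Col6a1 against Col6a2 and of Col6a3 against Cacng5, with 1 point per library, RNA-Seq 1 on the left and RNA-Seq 2 on the right, coloured by genotype and shaped by exposure. The pair Col6a3 and Cacng5 follows a line in both experiments (r = 0.925 and 0.917), and Col6a1 and Col6a2 follow one more closely in RNA-Seq 2 (0.880) than in RNA-Seq 1 (0.643).

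The receptors, partners and biosynthesis genes of collagen VI were compared between genotypes too, with the other collagens. In the pooled comparison after learning, where 2.84% of all genes passed, 1 of the 72 distinct genes listed did, a count near the background. None of 9 collagen VI receptors (integrin chains, Antxr1 and Antxr2, Cspg4 and Mcam), none of 10 tested extracellular partners (Bgn, Dcn and matrilins among them) and none of 16 genes of collagen biosynthesis and folding passed, with 2, 2 and 3 at an unadjusted p under 0.05. Their median log2 differences were 0.07, -0.09 and -0.05 beside -0.01 over all genes. None of 11 fibrillar and none of 9 basement membrane collagens passed, and 1 of 18 other collagens fell, Col19a1 (log2 difference -0.27, SE 0.0660, adjusted p = 0.0410), a collagen made by interneurons. It kept its direction in all 22 alternatives and passed in 6 of them. It did not pass without factors of unwanted variation, with DESeq2 or with GC-content normalization. Of the cell type markers, the neuron marker Prox1 rose (0.21, SE 0.0514, adjusted p = 0.0419). It passed in 11 of 22 alternatives, but not in the settings just named. In the homecage, after CFC and after the water maze no gene of these 6 lists passed between genotypes.

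With learning in WT mice, 8 of the 72 distinct genes passed in the pooled comparison, beside 1.04% of all genes. Among the 9 receptors 1 fell, the integrin chain Itga11 (-0.43, SE 0.0929). Among 10 tested partners 2 fell, the basement membrane chains Col4a1 (-0.22, SE 0.040) and Col4a2 (-0.26, SE 0.0507), and Matn2, a matrilin, rose (0.17, SE 0.0370). Among the 16 biosynthesis genes P4ha1, a subunit of prolyl 4-hydroxylase, rose (0.21, SE 0.0447) and P3h3, of the prolyl 3-hydroxylase family, fell (-0.19, SE 0.0418). Of the 11 fibrillar collagens Col5a3 (-0.37, SE 0.0648) and Col11a2 (-0.23, SE 0.0495) fell, of the 9 basement membrane collagens the same Col4a1 and Col4a2 fell, and of the 18 other collagens none passed. The medians of these lists ran from -0.31 (fibrillar collagens) to -0.02 (biosynthesis), beside -0.03 over all genes. The endothelial marker Cldn5 fell (-0.49, SE 0.0930) and the choroid plexus marker Folr1 rose (1.5, SE 0.323) in the same comparison. These 10 genes, with adjusted p of 0.0197 to 0.0482, kept their direction under all 21 alternatives, but each passed in only 4 to 13 of them. None of the 10 passed without the factors of unwanted variation, where the edgeR adjusted p was 0.485 to 0.794. With DESeq2 and with GC-content normalization none passed either. Over all genes, leaving out the factors moved the calls from 229 to 9. Among the other marker lists 0 of 11 fibroblast and 0 of 9 mural cell markers passed. Of 5 precursor markers 1 fell (Olig2, -0.23) and of 8 neuron markers 1 rose (Spink8, 0.33). These 2 passed in 6 and 8 of the 21 alternatives, and in none of the settings just named. The median over the fibroblast markers was -0.31, like that of the fibrillar collagens, a list with which they share Col1a1, Col1a2 and Col3a1. Over the neuron markers it was -0.09 and over the choroid plexus markers 1.46. Of the fibroblast, neuron and choroid plexus markers, 1, 6 and 7 had an unadjusted p under 0.05 by edgeR. The part of those cells in the collagen values was not tested. No gene of the 6 lists passed in the water maze or in fear conditioning alone.

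Among the 94 genes tested within 1 Mb of a member, 2 passed between genotypes after learning, or 2.13% beside 2.84% of all genes, a share near the background. Near Col6a3, the clock gene Per2 fell by 0.31 on the log2 scale (SE 0.0526, adjusted p = 0.00697) and passed in 20 of 22 alternatives. Near the chromosome 9 cluster, the phosphatase gene Dusp7 fell by 0.145 (SE 0.0300, adjusted p = 0.0194) and passed in 14 of 22 alternatives. Dusp7 did not pass without factors of unwanted variation, with DESeq2 or with GC-content normalization. With learning in WT mice 1 of 98 neighbours passed, or 1.02% beside 1.04% of all genes. It was Per2, which rose by 0.29 (SE 0.0623, adjusted p = 0.0435) and passed in 7 of 21 alternatives. Without the factors, with DESeq2 or with GC-content normalization Per2 did not pass with learning. No neighbour passed in any of the comparisons within an experiment.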

How the data were processed

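Dorsal hippocampal RNA was sequenced in 24 libraries of 7 groups, assigned from the sample labels. The authors deposited raw read counts per gene, made with STAR, featureCounts 1.4.4 and SAMtools 1.6 on mm10/GRCm38 per the labels; the strand setting is not given in the sources used here. The members and gene lists were chosen with earlier results of these data known.

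Counts were tested with edgeR 4.0.16 (glmQLFit and glmQLFTest, 2-sided, R 4.3.3) after filterByExpr and upper-quartile scaling, with Benjamini-Hochberg adjustment over all genes tested and a threshold of 0.05. Experiment was a term in pooled fits, with 3 (learning in WT) or 4 (genotype after learning) RUVr factors written for this work. SE is the log2 difference divided by the square root of F. RPKM used exon union length, and log2 CPM a prior count of 2. DESeq2 1.42.0, TMM, no filter, GC-content normalization over 10 bins, other factor numbers, the replicate block and leaving out each library were alternatives. The fits were tested on simulated data. Those data held the same dispersion for all genes and no unwanted variation, so they cannot check what the RUVr factors do in the real libraries.

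Same-numbered libraries were counted as paired where every correlation of their deviations was over 0.1, a rule that does not show that they were paired. The lowest was 0.112 for MWM in WT, 0.231 for CFC in WT and 0.175 for CFC in KIX. It was -0.164 to 0.0625 for the genotype comparisons, which were not counted as paired. Unlike-numbered libraries could correlate as well. In CFC in KIX, homecage replicate 2 had r of 0.259 with CFC replicate 1 and 0.251 with CFC replicate 2. Replicates 1 and 2 of RNA-Seq 2 were also deeper than replicates 3 and 4, and the part of depth was not tested. The main fits of all comparisons held no pairing term, and the replicate block was an alternative only. Of 51826 genes, 51633 were found in GENCODE M21. In 30 pairs of replicates none agreed within sampling noise. Replicates were labelled as separate samples. The edgeR p-values rest on the spread between them, partly shared over genes. In the pooled fits with RUVr factors, that spread is what remained after the factors. The members are named in every comparison, other genes of a list only when they passed (at most 2 per direction), neighbours within 1 Mb only when they passed, and for each member the 3 genes of highest Pearson correlation in RNA-Seq 2. 1 gene of these is not reported here.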

Additional observations from a re-analysis of the deposited data

Results flagged for a closer look

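In the KIX CFC group of RNA-Seq 2, Col6a3 stood at 11.3 CPM in replicate 4 and at 18.6 to 19.1 CPM in the other 3 libraries. The gap to the nearest library was 0.937 of the group's range, above Dixon's critical value for 4 samples. The test was run on 18 combinations of member and group in the 3 groups of 4 libraries, and chance marks about 1 in 20. The same library had the lowest Col6a4 level (0.530 CPM) and the highest Col6a1 level (104 CPM) of its experiment, and without it the Col6a3 difference between genotypes after CFC was 0.15 in place of 0.01.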

How the results depend on the processing

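The homecage difference in Col6a4 ran from -2.59 to -2.22 over its alternatives. The number of collagen VI genes called was 0 under every alternative except these. It was 3 for genotype after learning with the replicate block and factors together (Col6a1, Col6a3 and Col6a4, adjusted p of 0.00408, 0.00475 and 0.0340). The libraries of that comparison were not counted as paired. It was 1, Col6a3, for learning in WT with the replicate block and factors, and 1, Col6a3, for MWM in WT with the replicate block, with no filter, and in the leave-one-out fits, which ran from 0 to 1. The cause was not tested. The replicate block changed no other call of a member. Col6a2 per length was 1.21 and 3.12 RPKM with the longest transcript. The Col6a1 and Col6a2 correlation in RNA-Seq 1 was 0.87 on deviations. Small differences turned sign. These were Col6a6 in genotype after learning (-0.0121 with no factors, -0.00759 and -0.0131 with the replicate block without and with factors, -0.0129 with DESeq2), Col6a2 in genotype after MWM (0.0109, GC), Col6a1 in genotype after CFC (-0.0268, replicate block) and in learning in WT (0.0240, GC). Col6a1 in MWM in WT was 0.0114 (TMM), 0.0178 (DESeq2) and 0.0576 (GC). In CFC in WT Col6a5 was 0.0360 (replicate block) and 0.0213 (GC) and Col6a1 0.00561 (GC). In CFC in KIX Col6a2 was -0.0532 (replicate block) and -0.00550 (no filter). The learning by experiment term of Col6a1 was -0.000408 (TMM), -0.00836 (GC) and -0.00174 (no filter). In the homecage, alternatives ran from -0.708 to 0.0266 for Col6a3 and from -0.99 to 0.097 for Col6a6. Leaving out 1 library also turned signs elsewhere. For CFC in KIX these ranges were Col6a1 from -0.395 to 0.153, Col6a2 from -0.204 to 0.285. For CFC in WT these ranges were Col6a1 from -0.161 to 0.172, Col6a2 from -0.408 to 0.0136, Col6a5 from -0.161 to 0.138, Col6a6 from -0.515 to 0.238. For genotype after CFC these ranges were Col6a1 from -0.225 to 0.334, Col6a2 from -0.257 to 0.246, Col6a3 from -0.109 to 0.15, Col6a5 from -0.161 to 0.127. For genotype after learning these ranges were Col6a2 from -0.212 to 0.0861, Col6a3 from -0.0222 to 0.34, Col6a5 from -0.0694 to 0.145, Col6a6 from -0.098 to 0.146. For genotype after MWM these ranges were Col6a2 from -0.226 to 0.0161, Col6a3 from -0.13 to 1.06, Col6a4 from -0.105 to 0.357, Col6a5 from -0.058 to 0.38. For learning in WT these ranges were Col6a1 from -0.109 to 0.0358, Col6a2 from -0.198 to 0.00112. For MWM in WT these ranges were Col6a1 from -0.174 to 0.0767, Col6a2 from -0.125 to 0.172. Over all genes, without leaving out libraries, calls moved from 610 to between 4 and 2790 for genotype after learning, from 229 to between 9 and 938 for learning in WT, from 3 to between 2 and 465 for MWM in WT, from 3 to between 0 and 90 for genotype after MWM, from 1 to between 1 and 18 for genotype after CFC, from 2 to between 0 and 58 for the homecage, from 21 to between 16 and 42 for CFC in WT and from 2 to between 2 and 45 for CFC in KIX. Called genes for learning in WT were 27 higher and 5 lower with DESeq2, and 41 and 10 with GC normalization. Leaving out 1 library moved that comparison's calls between 34 (without WT homecage replicate 1 of RNA-Seq 1) and 2277 (without replicate 3). It moved calls between 234 and 1023 for genotype after learning (lowest without KIX MWM replicate 2, highest without KIX CFC replicate 1), between 0 and 1984 for MWM in WT (highest without WT homecage replicate 3), between 0 and 155 for CFC in KIX (highest without KIX homecage replicate 1), between 0 and 5 for genotype after MWM, between 0 and 7 for the homecage and between 13 and 18 for CFC in WT. No member fell to the 3-count floor of 0.0448 to 0.194 CPM. The lowest values rest on few counts, with 8 for Col6a6 in KIX homecage replicate 3 and 9 for Col6a4 in KIX CFC replicate 4.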
